A study of Mus musculus with 12 samples.

Results

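The growth hormone and insulin-like growth factor (IGF) axis of the liver was followed through 10 genes, namely Ghr, Stat5b, Cish, Socs2, Bcl6, Igf1, Igfals, Igfbp3, Igfbp1 and Igfbp2. They were chosen by name, as the gene probes whose accession maps to these mouse symbols, and they make up 10 of 13900 genes tested and 18 of 55681 gene probes. All 10 passed the filter on dim probes, and the probe that stood for each was well above background on all 12 arrays. The study compared liver RNA of male C57BL/6NJcl mice fed CDAHFD with that of mice fed the chow CE-2, the control, on 1-colour Agilent arrays. CDAHFD is a diet without choline and with little methionine (0.1% by weight) whose protein is replaced by amino acids and whose fat supplies 60% of the calories, and it is used to induce steatohepatitis. The 6 groups were CDAHFD for 1 week, CDAHFD for 2 weeks and CDAHFD for 6 weeks, with control groups of the same 1, 2 and 6 weeks, at 7, 8 and 12 weeks of age. Each group held 2 arrays, and this number limits the precision of every value. Nothing in the labels ties replicates to separate mice, so a p-value here covers the spread between arrays alone, and that spread may be technical.

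Growth hormone from the pituitary binds its receptor on hepatocytes and activates the kinase JAK2, which phosphorylates STAT5B, and STAT5B then enters the nucleus and induces target genes. The liver in this way makes most of the IGF1 that circulates, where it is carried with the acid-labile subunit (Igfals) and IGFBP3 in a ternary complex. Cish and Socs2 are rapid STAT5 targets that feed back on the receptor, and in male rodents growth hormone arrives in pulses, so that liver STAT5 activity rises and falls within hours.

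Levels are given on a log2 scale on which 0 is the 75th percentile of an array, so 1 unit is a 2-fold difference. A level of one gene's probe cannot be set against that of another. Differences are CDAHFD minus control, less the median difference over all genes, and percentages of the control level are computed from these differences. That median was 0.13 at 1 week, 0.05 at 2 weeks, 0.03 at 6 weeks and 0.08 averaged over weeks. The adjusted p is that of the limma fit over all genes (Benjamini-Hochberg), and a gene is said to rise or fall where it is below 0.05. The share of probes well above background ran from 45.4 to 49.7% with CDAHFD and from 40.4 to 44.4% in controls. Weeks 1 and 2 were hybridised on one slide and week 6 on another, so week 6 and its slide cannot be told apart, while both diets of a week shared a slide. Control replicate 1 at 1 week held a dim area of 9 blocks with 331 spots, in which 0 of the axis' probes lay, and the difference between the replicates of that group had a standard deviation of 0.85 across genes, where the other groups had 0.29 to 0.49.

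Of the 10 genes, 4 fell with CDAHFD at each week, and they were the same genes at 1, 2 and 6 weeks: Ghr, Stat5b, Igf1 and Igfals. No member rose at a single week (0 of 10, and 0 at an unadjusted p under 0.05), and in the average over weeks Igfbp3 rose beside the 4 that fell. Among all genes tested, 40.9% were called at 1 week, 37.8% at 2 weeks, 40.7% at 6 weeks and 61.3% in the average, so 4 or 5 of 10 is a share near that of all genes. Lower calls alone made up 15% of all genes at 1 week, 14.9% at 2 weeks, 16.2% at 6 weeks and 25.7% in the average, where higher calls made up 35.6%. The median difference of the 10 members was -0.43, -0.71 and -0.16 at 1, 2 and 6 weeks. The receptor, the transducer and the ternary complex ligand and subunit made up the 4 that fell, whereas the binding protein genes Igfbp1 and Igfbp2 and the STAT5-responsive genes Cish, Socs2 and Bcl6 did not pass the test at any week.

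**Figure D1:**
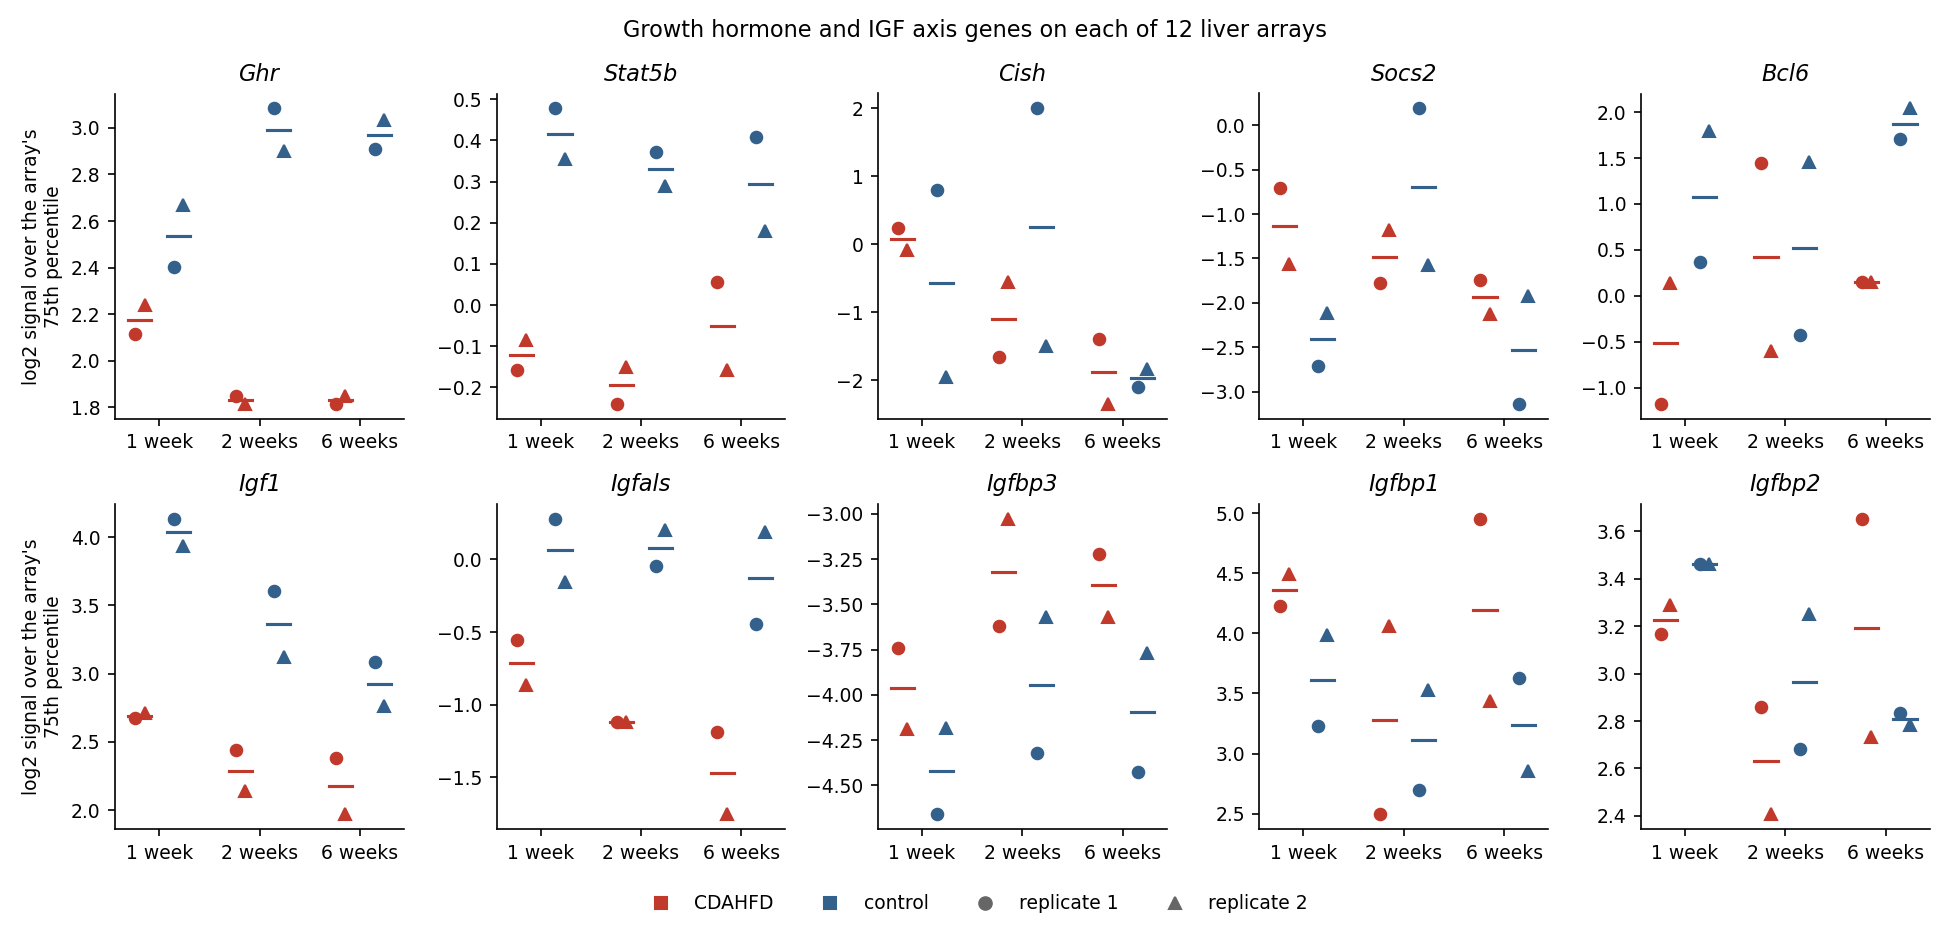
Level of each of the 10 genes on every array (log2, 0 is the array's 75th percentile), with CDAHFD left of control at 1, 2 and 6 weeks; points are arrays and bars the mean of 2. The 6 CDAHFD arrays lie below the 6 control arrays for Ghr, Stat5b, Igf1 and Igfals, and the arrays of both diets overlap for the other 6 genes.

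Ghr encodes the growth hormone receptor. Its level was 2.12 and 2.24 on CDAHFD arrays at 1 week, against 2.40 and 2.67 on control arrays. At 2 weeks it was 1.85 and 1.82 with CDAHFD, against 3.08 and 2.90 in controls, and at 6 weeks 1.81 and 1.85 with CDAHFD, against 2.91 and 3.03 in controls. All 6 CDAHFD arrays were lower than all 6 control arrays, and the smallest gap lay at 1 week. Less the median of all genes, Ghr RNA with CDAHFD stood at 71.3%, 43.2% and 44.4% of the control level at 1, 2 and 6 weeks. The differences were -0.49, -1.21 and -1.17 with a standard error (SE) of 0.118, at adjusted p of 0.0329, 3.93e-05 and 3.52e-05. In order of group means, CDAHFD at 6 and 2 weeks were lowest and overlapped, followed by CDAHFD at 1 week and control at 1 week, which did not overlap with their neighbours, and by control at 6 and 2 weeks, which overlapped.

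A second probe, for another Ghr transcript, read 1.23 and 1.35 with CDAHFD at 1 week, against 2.49 and 2.40 in controls. At 6 weeks it read 0.85 and 0.55 with CDAHFD, against 2.42 and 2.46 in controls. It fell at all 3 weeks, by -1.21, -1.64 and -1.73 relative to the median of all probes (SE 0.119, adjusted p 7.78e-05, 6.64e-06 and 3.29e-06, limma over all probes). At 1 week the difference of this probe was thus larger than the -0.41 of the first probe on the same scale (SE 0.119), although the difference between the probes was not tested. The control arrays of the second probe stayed between 2.40 and 2.49 at all weeks, where those of the first probe ran from 2.40 to 3.08.

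The fall of Ghr passed in all 25 other settings at 2 and at 6 weeks and in 16 of 26 at 1 week. For the 1-week difference, under quantile normalization the value was -0.13 (adjusted p 0.642), and after normexp background correction it was -0.12 (adjusted p 0.0629). Without control replicate 2 of 1 week it was -0.34 (adjusted p 0.218), without CDAHFD replicate 1 or 2 of 1 week -0.40 and -0.58 (adjusted p 0.185 and 0.0572), and without either CDAHFD array of 2 weeks the adjusted p was 0.0514.

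Stat5b encodes the transcription factor through which the growth hormone receptor induces most of its liver targets. Its level was -0.16 and -0.08 with CDAHFD at 1 week, against 0.48 and 0.36 in controls. The values at 2 weeks were -0.24 and -0.15 with CDAHFD, against 0.37 and 0.29 in controls, and at 6 weeks 0.06 and -0.16 with CDAHFD, against 0.41 and 0.18 in controls. No CDAHFD array reached a control array, and within each diet the weeks overlapped. Stat5b stood at 62.9%, 67.1% and 76.9% of the control level at 1, 2 and 6 weeks, differences of -0.67, -0.58 and -0.38 (SE 0.118, adjusted p 0.00486, 0.00562 and 0.0391). Its second probe fell by -0.44 at 1 week and -0.58 at 2 weeks (adjusted p 0.0332 and 0.00516) and differed by -0.15 at 6 weeks (SE 0.127, adjusted p 0.388). The call at 6 weeks was also lost when the probes were averaged (-0.28, adjusted p 0.111), when control replicate 1 of that week was left out (-0.26, adjusted p 0.261) and when CDAHFD replicate 2 was left out (-0.26, adjusted p 0.195). Without any 1 of the CDAHFD arrays of 1 and 2 weeks, its adjusted p was 0.0536 to 0.056.

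**Figure D2:**
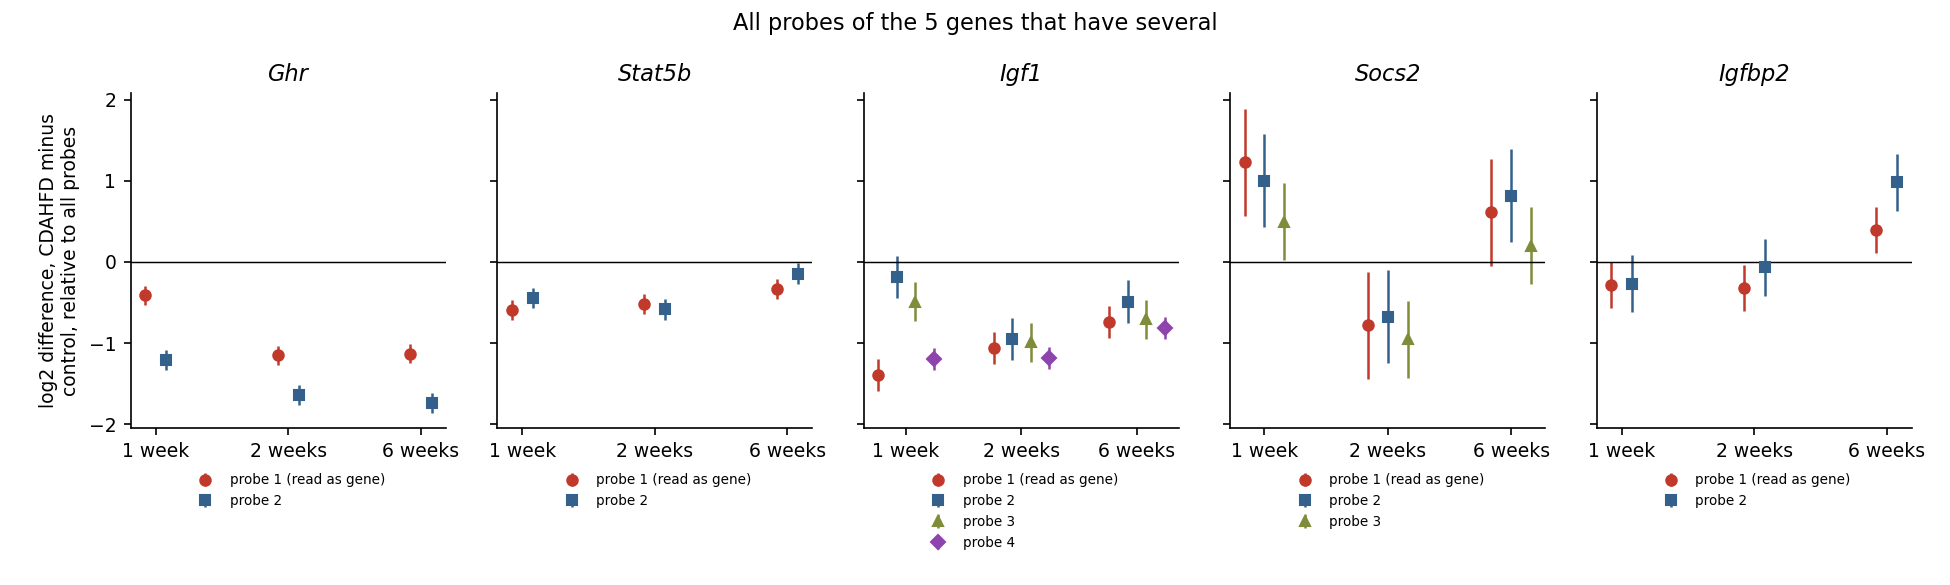
Difference between CDAHFD and control (log2, relative to the median of all probes, bars are SE) for each probe of the members with more than 1 probe, at 1, 2 and 6 weeks. Both Ghr probes lie below 0 at all weeks, and the 4 Igf1 probes differ most from each other at 1 week, between -1.39 and -0.18.

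Igf1 encodes the main growth factor that the liver releases under growth hormone. Its level was 2.67 and 2.71 with CDAHFD at 1 week, against 4.14 and 3.93 in controls. At 2 weeks it was 2.44 and 2.14 with CDAHFD, against 3.60 and 3.12 in controls, and at 6 weeks 2.38 and 1.97 with CDAHFD, against 3.09 and 2.76 in controls. Every CDAHFD array was lower than every control array. Igf1 RNA stood at 36.0%, 45.9% and 58.1% of the control level, with differences of -1.47, -1.12 and -0.78 (SE 0.197, adjusted p 0.000533, 0.00186 and 0.0119). On this probe the differences became smaller from week to week while the control levels also became lower. The change from 1 to 6 weeks was 0.63 ± 0.28 (SE, limma, adjusted p 0.232). In order of group means, CDAHFD at 6 and 2 weeks were lowest and overlapped, and then came CDAHFD at 1 week and controls at 6, 2 and 1 weeks, none of which overlapped with a neighbour.

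Of the other 3 Igf1 probes, one fell at all weeks, by -1.19, -1.18 and -0.81 (SE 0.136, adjusted p 0.000177, 0.000102 and 0.00102). Another fell at 2 weeks (-0.99) and 6 weeks (-0.71) and differed by -0.49 at 1 week (SE 0.241, adjusted p 0.0106, 0.0443 and 0.181 in that order). The dimmest fell at 2 weeks only, by -0.95 (SE 0.26, adjusted p 0.018), and at 1 week it read -1.58 and -1.83 with CDAHFD, against -1.68 and -1.47 in controls, which overlapped. All 4 probes thus had lower means with CDAHFD at each week, but the size at 1 week depended on the probe. So did the direction of the change from 1 to 6 weeks. It was 0.32 (SE 0.192) for the probe that fell at all weeks. For the next it was -0.27 (SE 0.34) and for the dimmest -0.36 (SE 0.367), so there the difference did not become smaller. Without control replicate 1 of 6 weeks the difference of the gene at 6 weeks was -0.62 (adjusted p 0.0988), and without CDAHFD replicate 2 it was -0.57 (adjusted p 0.081).

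Igfals encodes the acid-labile subunit, the hepatocyte protein that holds IGF1 and IGFBP3 in the circulating complex. Its level was -0.56 and -0.86 with CDAHFD at 1 week, against 0.28 and -0.16 in controls. Arrays of 2 weeks read -1.12 and -1.12 with CDAHFD, against -0.05 and 0.20 in controls, and at 6 weeks -1.19 and -1.75 with CDAHFD, against -0.45 and 0.19 in controls. The groups of 6 arrays did not overlap, and the lowest control array, replicate 1 of 6 weeks, lay just above the highest CDAHFD array, replicate 1 of 1 week. Igfals stood at 53.5%, 42.2% and 38.5% of the control level, with differences of -0.90, -1.25 and -1.38 (SE 0.249, adjusted p 0.0317, 0.00402 and 0.00188). The call at 1 week was lost when either CDAHFD array or control replicate 1 of that week was left out, with adjusted p of 0.065, 0.158 and 0.183 and differences of -1.02, -0.78 and -0.68.

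Igfbp3 encodes the main IGF carrier of plasma, and in rat liver it is expressed chiefly outside hepatocytes. Its level was -3.74 and -4.19 with CDAHFD at 1 week, against -4.66 and -4.18 in controls. At 2 weeks it was -3.62 and -3.03 with CDAHFD, against -4.32 and -3.57 in controls, and at 6 weeks -3.22 and -3.57 with CDAHFD, against -4.43 and -3.77 in controls. The diets overlapped at 1 and 2 weeks and not at 6 weeks. No single week passed the test (0.33, 0.57 and 0.67, SE 0.333, adjusted p 0.296, 0.168 and 0.12), while the average over weeks rose by 0.52 ± 0.19 (SE, adjusted p 0.0212, interval 0.09 to 0.94). This call did not hold within either slide (0.44, adjusted p 0.072, and 0.67, adjusted p 0.103), after quantile normalization (0.33, adjusted p 0.134) or without any 1 of 6 arrays (adjusted p 0.0508 to 0.063). These were control replicate 1 of each week, CDAHFD replicate 1 of 1 and 6 weeks and CDAHFD replicate 2 of 2 weeks.

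Among the members of the ternary complex, Igf1 and Igfals thus fell and Igfbp3 did not. Markers of several cell types also differed between the diets, and the defining hepatocyte markers such as Alb and Ttr were above background on all 12 arrays. The 7 measured hepatocyte markers had a median difference of -1.01, -0.72 and -0.43 at 1, 2 and 6 weeks, all 7 fell in the average over weeks, and their summed level ranged from 7.63 to 7.98 on CDAHFD arrays and from 8.04 to 8.90 on control arrays. Under quantile normalization 2 of the 7 fell and 1 rose in the average. The summed level of 10 macrophage markers ranged from 3.85 to 4.60 on CDAHFD arrays and from 2.31 to 3.25 on control arrays, and 7 of them rose in the average. Of 8 stellate cell markers all 8 rose in the average, with sums of 4.31 to 5.19 on CDAHFD arrays and 3.09 to 3.46 on control arrays. Over all weeks the sums of 7 endothelial markers overlapped, from 2.53 to 3.05 with CDAHFD and from 2.80 to 3.15 in controls, as did those of 5 T and NK cell markers (-0.41 to 0.17 with CDAHFD and -0.97 to -0.30 in controls). Of the endothelial markers, 1 rose and 3 fell in the average, and 1 rose and 4 fell at 6 weeks (median -0.68). At 6 weeks their sums were 2.53 and 2.69 with CDAHFD, against 3.15 and 3.12 in controls. Of the T and NK cell markers, 3 rose and 1 fell in the average, and 4 rose and none fell at 6 weeks (median 1.26). The 3 erythroid markers measured fell at every week, with medians of -1.73, -1.31 and -1.17 and sums of 2.64 to 3.21 with CDAHFD and 4.10 to 4.58 in controls. The sums of 6 cholangiocyte markers (-1.34 to 0.54 with CDAHFD and -2.12 to -1.56 in controls) and of 3 B cell markers (-2.80 to -2.07 with CDAHFD and -3.79 to -3.02 in controls) did not overlap either, and 3 of each list rose in the average. The cholangiocyte sum adds linear signals and rests mostly on Spp1. Of that list 1, 1 and 2 genes rose at 1, 2 and 6 weeks, with medians of 0.02, 0.27 and 0.945. At 1 week Krt19, Epcam and Spp1 had higher means with CDAHFD and Krt7, Sox9 and Cftr lower ones. In whole liver, fewer cells of a type and less RNA per cell cannot be told apart, and the part of these markers in the differences of the axis was not tested.

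**Figure D3:**
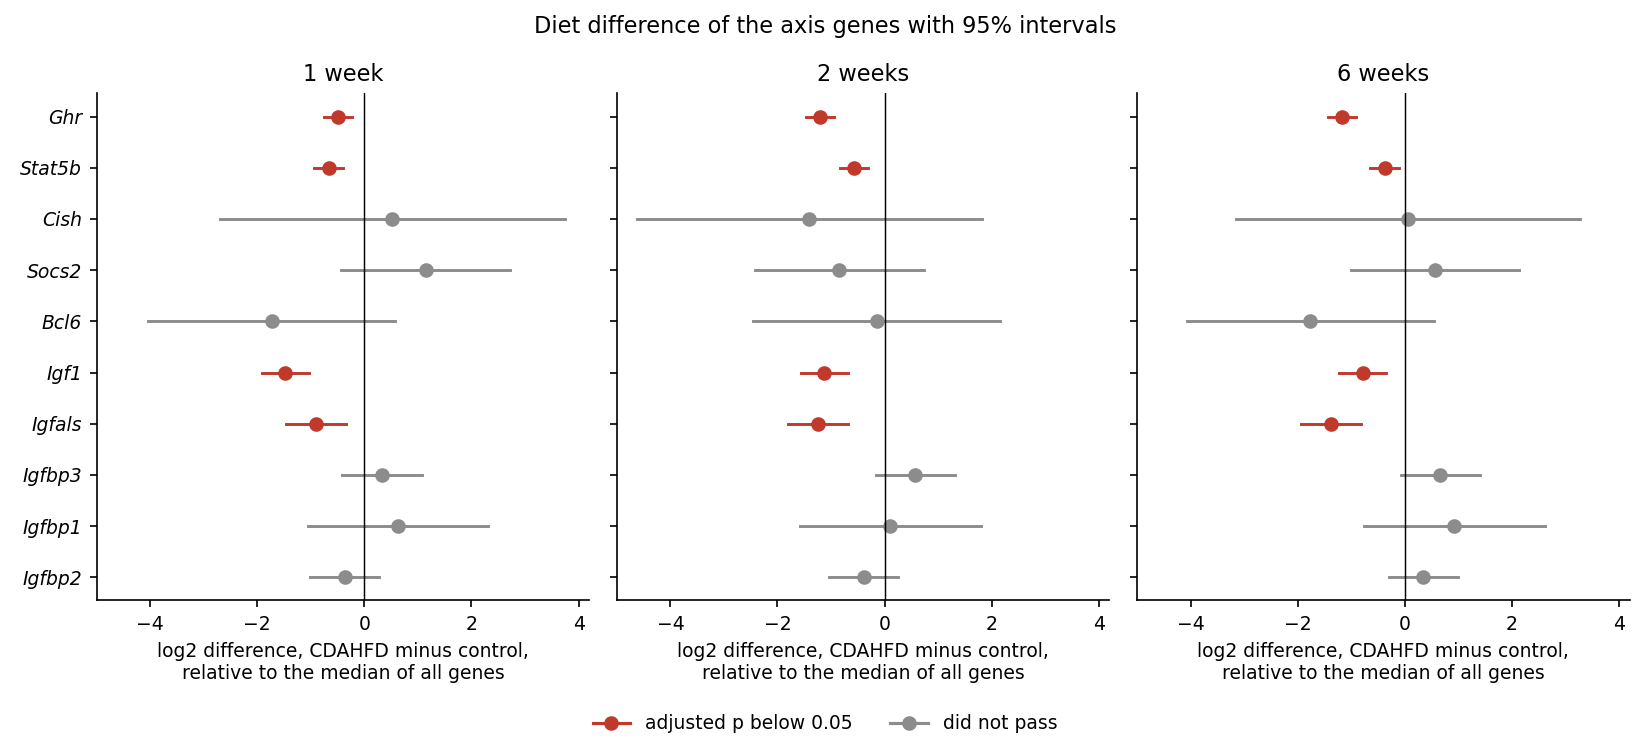
Difference between CDAHFD and control for the 10 genes at 1, 2 and 6 weeks (log2, less the all-gene median), with bars for 95% intervals; red points have an adjusted p under 0.05. Ghr, Stat5b, Igf1 and Igfals are red and below 0 at every week, and the bars of Cish, Bcl6, Socs2 and Igfbp1 are the widest.

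Promoters were searched for TTCNNNGAA, the consensus that STAT5 proteins bind, which reads the same on both strands. RefSeq start sites of GRCm38.p6 gave windows of 300 bases, from 250 before to 50 after the start, for 9 of the 10 members, all but Socs2 (15 windows). Of all 32851 windows of this length 8.3% held at least 1 match, 0.457% at least 2 and 0.0335% at least 3. Among the members, 8 matches lay in 5 windows of Cish, Bcl6 and Igfals, and the windows of Ghr, Igf1, Igfbp1, Igfbp2, Igfbp3 and Stat5b held none, which says only that these letters are not in those windows. The windows with most matches, those of Cish and of one Bcl6 start, are shown with that of Igfals nearest to a start, because Igfals fell and the other genes varied most between replicates. Each runs 5′ to 3′ on the gene's strand from 250 bases before to 30 after the start, and capitals mark the matches. The window of Cish is chr9:107296409-107296688 on the plus strand, that of Bcl6 is chr16:23981254-23981533 on the minus strand, and that of Igfals is chr17:24877981-24878260 on the plus strand.
Cish: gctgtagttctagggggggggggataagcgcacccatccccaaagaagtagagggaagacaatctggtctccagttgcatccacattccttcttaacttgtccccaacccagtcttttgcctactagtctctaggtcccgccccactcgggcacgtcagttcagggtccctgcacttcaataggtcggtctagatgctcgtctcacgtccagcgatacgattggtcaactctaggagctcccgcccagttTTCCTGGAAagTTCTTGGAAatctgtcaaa
Bcl6: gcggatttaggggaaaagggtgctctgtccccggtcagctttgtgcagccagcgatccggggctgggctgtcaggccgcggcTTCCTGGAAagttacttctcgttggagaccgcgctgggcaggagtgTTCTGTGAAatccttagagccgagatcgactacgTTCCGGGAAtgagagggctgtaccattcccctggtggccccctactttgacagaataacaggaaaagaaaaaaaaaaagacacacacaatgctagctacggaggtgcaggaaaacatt
Igfals: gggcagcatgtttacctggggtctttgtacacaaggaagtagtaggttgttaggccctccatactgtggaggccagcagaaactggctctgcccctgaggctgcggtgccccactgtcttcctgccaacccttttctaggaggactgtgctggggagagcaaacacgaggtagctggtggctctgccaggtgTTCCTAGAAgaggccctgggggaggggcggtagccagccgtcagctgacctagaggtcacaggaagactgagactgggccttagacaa
In Cish the matches begin at bases 1 and 12 after the start. In Bcl6 they begin 168, 122 and 88 bases before it, and in Igfals 58 bases before it. A second Bcl6 start and a further Igfals start held 1 match each, at 118 and 236 bases before the start. A match is a description of these letters and not evidence of binding.

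Cish encodes a SOCS-family protein that is induced by STAT5 within minutes and damps cytokine receptor signalling. Its level was 0.24 and -0.08 with CDAHFD at 1 week, against 0.80 and -1.95 in controls. After 2 weeks the level was -1.65 and -0.55 with CDAHFD, against 2.00 and -1.50 in controls, and at 6 weeks -1.40 and -2.35 with CDAHFD, against -2.10 and -1.84 in controls. The highest array was a control of 2 weeks and the lowest a CDAHFD array of 6 weeks, and the diets overlapped at every week. The differences were 0.52, -1.40 and 0.06 (SE 1.33, adjusted p 0.724, 0.472 and 0.964), and the interval of the average, -2.14 to 1.58, allows a difference of over 2-fold in either direction. Control replicates alone differed by 2.75 at 1 week and 3.5 at 2 weeks.

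Socs2 encodes the suppressor of cytokine signalling that limits growth hormone receptor signalling in mice. Its level was -0.71 and -1.56 with CDAHFD at 1 week, against -2.71 and -2.11 in controls. At 2 weeks it was -1.78 and -1.18 with CDAHFD, against 0.19 and -1.57 in controls, and at 6 weeks -1.74 and -2.12 with CDAHFD, against -3.14 and -1.93 in controls. The diets did not overlap at 1 week and overlapped at 2 and 6 weeks. None of the weeks passed the test (1.15, -0.84 and 0.57, SE 0.666, adjusted p 0.167, 0.395 and 0.513). The other 2 probes of Socs2 had the same sign at each week, with differences of 1.00, -0.67 and 0.82 for one and 0.49, -0.95 and 0.20 for the other.

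Bcl6 encodes a transcriptional repressor that is more abundant in male than in female mouse liver and shares binding sites with STAT5. Its level was -1.18 and 0.14 with CDAHFD at 1 week, against 0.36 and 1.79 in controls. The values at 2 weeks were 1.44 and -0.60 with CDAHFD, against -0.42 and 1.46 in controls, and at 6 weeks 0.14 and 0.15 with CDAHFD, against 1.70 and 2.04 in controls. CDAHFD arrays were lower than control arrays at 1 and 6 weeks and overlapped with them at 2 weeks. The differences of -1.73 at 1 week and -1.76 at 6 weeks did not pass the test, since with an SE of 0.956 their adjusted p was 0.227 and 0.2. In the average the difference was -1.22 ± 0.55 (SE, adjusted p 0.117, interval -2.55 to 0.11). With the 4 arrays of 6 weeks fitted alone the 6-week difference had an adjusted p of 0.00105, and without control replicate 1 of 1 week the average was -1.45 (adjusted p 0.046).

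The spread between replicates differed among the members. The pooled standard deviation within groups was 1.36 for Cish, 0.98 for Bcl6, 0.75 for Igfbp1 and 0.72 for Socs2, against a median of 0.186 over all genes tested, and 99.1%, 98.4%, 96.9% and 96.5% of genes had a smaller one. For Ghr and Stat5b it was 0.107 and 0.106, and 16.7% and 16.3% of genes had a smaller one. Within 5 of the 6 groups the replicate with more Cish had less Bcl6, the exception being the control group at 6 weeks, although the Bcl6 levels of the CDAHFD group at 6 weeks, 0.14 and 0.15, were nearly equal. In 5 of the 6 groups the replicate with more Cish also had more Socs2, the exception being the control group at 1 week. Of the other pairs looked at, Igfbp1 went the same way as Cish in 2 of 6 groups and opposite to Bcl6 in 3 of 6. These relations were noticed in the data and were not tested, and among all genes 6.81% showed a direction opposite to Cish in at least 5 groups and 11.4% the same direction.

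**Figure D4:**
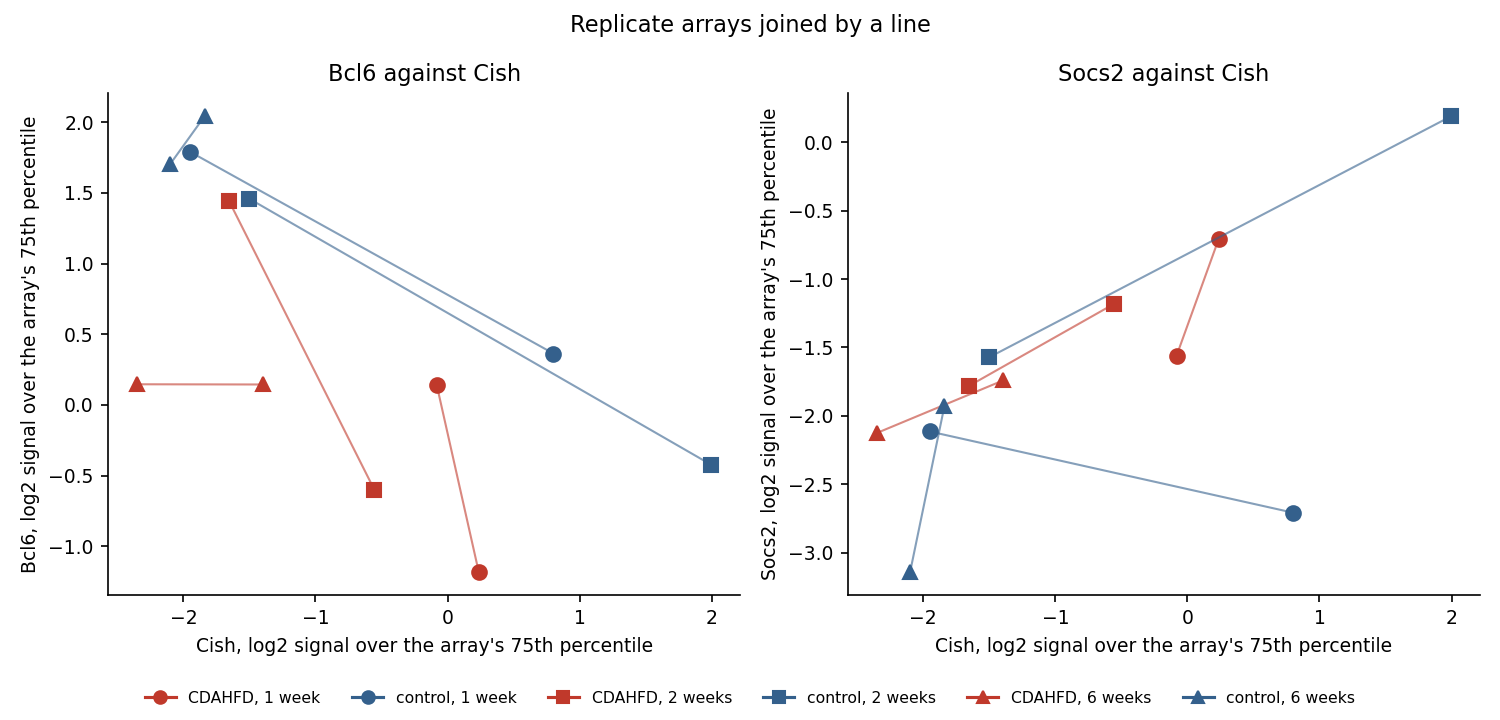
Levels of Bcl6 and of Socs2 against that of Cish (log2, 0 is the array's 75th percentile) on the 12 arrays, with a line joining the 2 replicates of each group, CDAHFD and control in separate colours. The lines fall for Bcl6 (nearly flat for CDAHFD at 6 weeks) and rise for Socs2 in 5 of 6 groups each.

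Igfbp1 encodes the IGF-binding protein that insulin suppresses and fasting induces. Its level was 4.23 and 4.50 with CDAHFD at 1 week, against 3.23 and 3.98 in controls. At 2 weeks it was 2.49 and 4.06 with CDAHFD, against 2.70 and 3.53 in controls, and at 6 weeks 4.96 and 3.44 with CDAHFD, against 3.63 and 2.85 in controls. The diets did not overlap at 1 week and overlapped later. The differences of 0.62, 0.11 and 0.92 did not pass the test (SE 0.706, adjusted p 0.428, 0.884 and 0.325), and the interval of the average ran from -0.42 to 1.52.

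Igfbp2 encodes a second hepatocyte IGF-binding protein. Its level was 3.17 and 3.29 with CDAHFD at 1 week, against 3.46 and 3.46 in controls. Arrays of 2 weeks read 2.86 and 2.41 with CDAHFD, against 2.68 and 3.25 in controls, and at 6 weeks 3.65 and 2.73 with CDAHFD, against 2.83 and 2.79 in controls. CDAHFD arrays were lower at 1 week and overlapped with controls at 2 and 6 weeks. None of the differences passed (-0.37, -0.39 and 0.35, SE 0.286, adjusted p 0.536, 0.394 and 0.319), and the interval of the average was -0.51 to 0.23. The second probe differed by 0.98 ± 0.35 at 6 weeks (SE, adjusted p 0.0634), where it read 3.69 and 2.53 with CDAHFD, against 2.16 and 2.11 in controls. Without CDAHFD replicate 2 of 6 weeks, the lower of that pair, Igfbp2 differed by 0.82 (adjusted p 0.0194).

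Whether the diet difference changed with time was tested next. Between weeks it changed for Ghr only (1 of 10 members, against 2.4% of all genes, interaction F test, adjusted p 0.0442), and the 6-week difference minus the 1-week difference was -0.75 ± 0.17 (SE, adjusted p 0.0289, against 5.38% of all genes called). Set against the controls of 2 and 6 weeks, the CDAHFD arrays of 1 week gave a change of -0.33 (adjusted p 0.214), and adjusted p was 0.0545 to 0.0981 without control replicate 1 of 1 week, either CDAHFD array of 1 or 2 weeks or either control array of 6 weeks. Without any 1 of those 7 arrays the count over all genes also fell, to 129 to 372 of the 748 for 6 weeks minus 1 week and to 23 to 141 of the 334 for the change between weeks. The count for the change between weeks was 609 without control replicate 2 of 1 week and 574 without CDAHFD replicate 2 of 6 weeks. The second Ghr probe gave an adjusted p of 0.141 for a change between weeks. Within the control diet Ghr and Igf1 differed between weeks (2 of 10 members, against 11.5% of all genes, F test, adjusted p 0.0437 and 0.0167). On the probes that stood for them, Ghr was lowest and Igf1 highest at 1 week. The 1596 genes called there became 391 without control replicate 1 of 1 week, 661 and 669 without the control arrays of 6 weeks and 970 and 967 without the CDAHFD arrays of 2 weeks. With the mean of a gene's probes the adjusted p of Ghr and Igf1 became 0.22 and 0.321, and without control replicate 1 of 1 week 0.306 and 0.113. Other probes did not all share these directions in controls. The second Ghr probe averaged 2.446, 2.443 and 2.441 at 1, 2 and 6 weeks. A further Igf1 probe was also highest at 1 week (3.32, 3.05 and 2.72). The remaining Igf1 probes were lowest there, with means of 1.80, 2.24 and 1.93 and of -1.57, -0.82 and -1.215. Against the later controls, Igf1 at 1 week differed by -0.51 (limma, adjusted p 0.0645).

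Over all weeks, the 6 CDAHFD arrays did not overlap with the 6 control arrays for 4 of the 10 members, against 32% of all genes. By pattern over the 12 arrays, measured as the root mean square of the log2 difference after centring each gene on its control mean, the genes most like Ghr were Adh4 (0.101), an alcohol dehydrogenase, and Aadac (0.116), an arylacetamide deacetylase. Those most like Igf1 were Atp5o (0.113), a subunit of the mitochondrial ATP synthase, and Cyp46a1 (0.169), a cholesterol hydroxylase. For Igfals they were Unkl (0.197) and Amt (0.205), and for Stat5b Ifnar2 (0.0586), a chain of the interferon receptor, and Itm2b (0.0668). The nearest genes to Igfbp3 were Ablim1 (0.221) and Gpt2 (0.233), and to Igfbp2 Rnd1 (0.24) and Ung (0.243). Those nearest to Igfbp1 (Btg1c 0.501 and Eri3 0.535), Socs2 (Alas1 0.488 and Wsb1 0.574), Bcl6 (Tbx3 0.573 and Tulp2 0.727) and Cish (Rgs3 0.732 and Chac1 0.771) lay farther off. The search covered 10868 genes above background on all arrays.

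The wider receptor pathway was read through 24 further genes of growth hormone receptor signalling. Of these, 7 rose and 2 fell at 1 week, 6 rose and 6 fell at 2 weeks, and 7 rose and 3 fell at 6 weeks, with medians of 0.14, 0.09 and 0.05. Higher calls made up 25.9%, 22.9% and 24.5% of all genes at 1, 2 and 6 weeks, and lower calls 15%, 14.9% and 16.2%. In the average over weeks, Jak2, the receptor's kinase, rose by 0.38 ± 0.07 (SE, adjusted p 0.000207), and Stat5a, the close relative of Stat5b, rose by 0.38 ± 0.11 (SE, adjusted p 0.00395). Stat3 fell by 0.29 on the log2 scale (SE 0.07, adjusted p 0.0238), a call that leaving out control replicate 1 of any week or either of 2 CDAHFD arrays ended. The Stat3 call was also lost under quantile normalization and within the slide of 6 weeks. The phosphatase gene Ptpn6 rose by 1.17 ± 0.07 (SE, adjusted p 1.25e-07) and Sirpa, which recruits such phosphatases, by 2.74 ± 0.08 (SE, adjusted p 3.78e-09). Genes of the SOCS family did not move one way. Socs1 rose by 1.45 ± 0.17 (SE, adjusted p 2.28e-05) and Socs5 by 0.49 (adjusted p 0.00443), Socs4 fell by 0.43 on the log2 scale (adjusted p 0.00983), and Socs3, Socs6 and Socs7 differed by -0.60, -0.10 and -0.21 (adjusted p 0.186, 0.918 and 0.13). Socs3 to Socs7 were added after their values were seen. Ptpn6 and Sirpa are also abundant in macrophages, whose summed markers did not overlap between the diets. Cebpa, a hepatocyte transcription factor, fell by 0.78 (SE 0.083, adjusted p 3.45e-05). How many genes of this list rose or fell depended on the scaling: with the percentile taken over all probes 4 rose and 7 fell at 1 week. After normexp Socs1 differed by 0.41 in the average (adjusted p 0.145), and with the percentile over all probes the adjusted p of Stat5a was 0.119.

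Of 26 further genes of IGF ligands, binding proteins, receptors and proteases 16 were measured; Igf2, the second ligand, was not among them. Of the 16, 4 rose and none fell at 1 week, 6 rose and 2 fell at 2 weeks, and 9 rose and 1 fell at 6 weeks. Their medians were 0.24, -0.11 and 0.65 (0.47 at 6 weeks with dim genes at their bound). Among all genes, 25.9%, 22.9% and 24.5% rose and 15%, 14.9% and 16.2% fell at 1, 2 and 6 weeks. Igf1r, the receptor of IGF1, rose by 0.92 ± 0.11 in the average (SE, adjusted p 2.81e-05), and Igf2r, the clearance receptor of IGF2, rose by 0.37 ± 0.07 (SE, adjusted p 0.000241). Mmp14, a membrane protease, rose by 0.70 ± 0.10 (SE, adjusted p 7.19e-05). Igfbp4, a further binding protein gene, fell at 2 weeks, at 6 weeks and in the average, with differences of -0.55, -0.50 and -0.505. Its call at 6 weeks was lost with array weights, eBayes without trend or no filter, among other settings. The call in the average was lost within the slide of 6 weeks. Igf2bp2, which binds mRNA, was at least 3.77-fold higher at 2 weeks and at least 5.43-fold higher at 6 weeks (adjusted p 3.18e-05 and 1e-05), being below background on the control arrays of those weeks. Insrr, the insulin receptor-related receptor, was at least 1.16-fold higher at 6 weeks (adjusted p 0.00266). After normexp 1 gene of this list rose and 2 fell at 1 week, and the differences were 0.40 for Igf2bp2 at 2 weeks (adjusted p 0.473), 0.71 for it at 6 weeks (adjusted p 0.0761), 0.03 for Insrr at 6 weeks (adjusted p 0.921) and 0.29 for Mmp14 in the average (adjusted p 0.307). After normexp Igf1r still passed in the average but at no single week (limma, adjusted p 0.177 at 2 weeks and 0.0944 at 6 weeks). In the average over weeks, Igf1 RNA was thus lower and Igf1r RNA higher with CDAHFD. Whole liver does not show which cells carried each RNA, and the part of cell types in either difference was not tested.

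**Figure D5:**
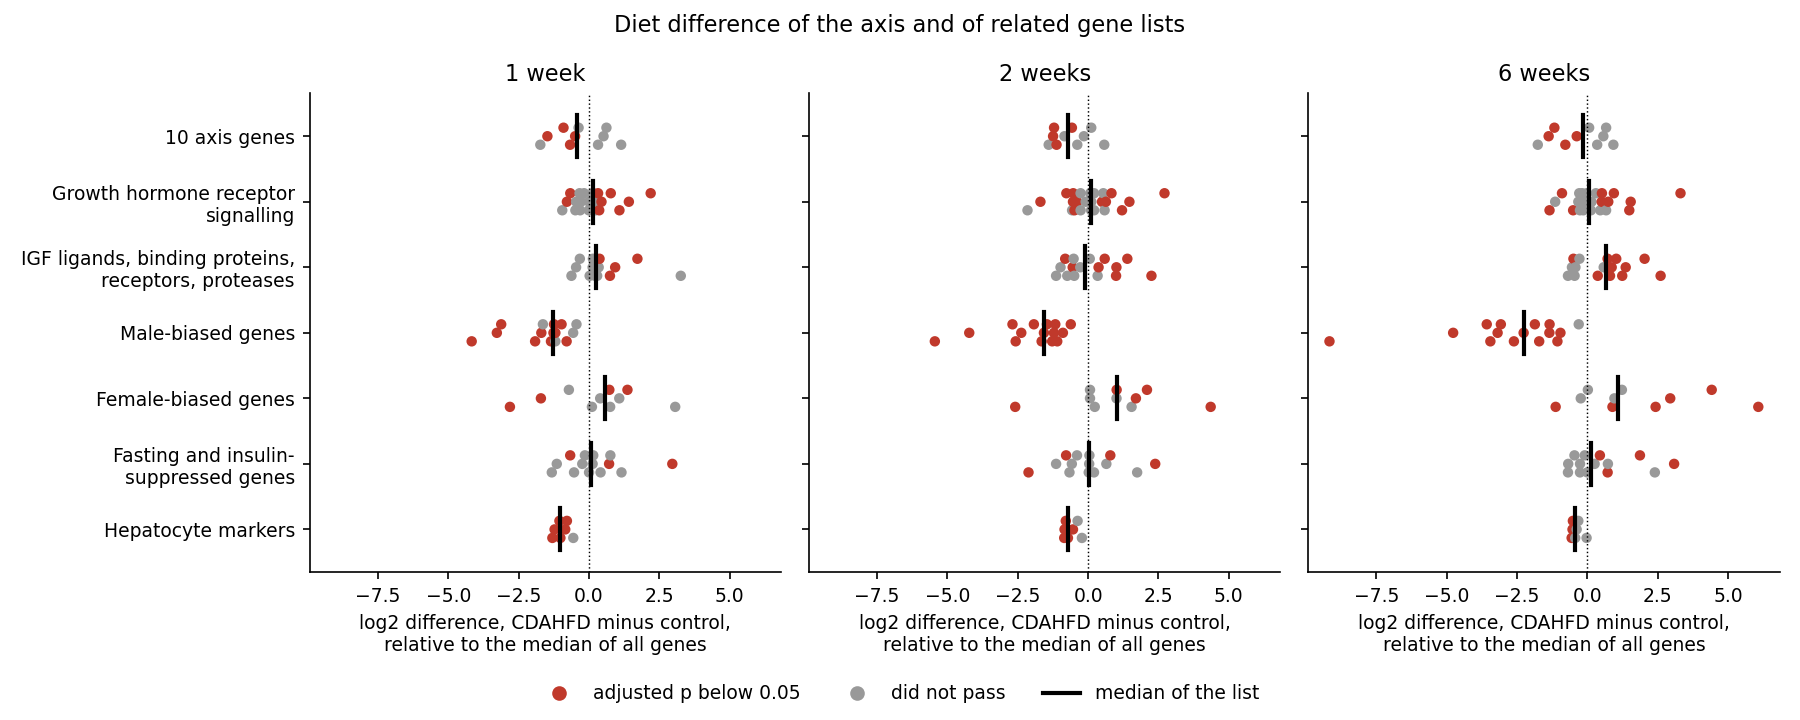
Difference between CDAHFD and control at 1, 2 and 6 weeks (log2, relative to the median of all genes) for the 10 members, 5 gene lists around the axis and hepatocyte markers, 1 point per measured gene (red where the adjusted p is under 0.05), with the median as a bar; genes below background in a group are drawn at their fitted value. The male-biased list lies below 0 with medians of -1.26, -1.57 and -2.27, and the lists of receptor signalling and of insulin-suppressed genes lie on both sides of 0.

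In male mice the pulses of growth hormone maintain a set of male-biased liver genes and repress a set of female-biased ones. Of 15 measured male-biased genes, 11 fell at 1 week, 15 at 2 weeks and 14 at 6 weeks and none rose. Their medians were -1.26, -1.57 and -2.27. Lower calls made up 15%, 14.9% and 16.2% of all genes at 1, 2 and 6 weeks. This list, like the others here, was written with earlier results of these data known, so its counts only describe it. Cyp4a12a, a fatty acid hydroxylase, fell by 2.93 in the average (SE 0.128) and Cyp2d9, a steroid hydroxylase, by 1.93 (SE 0.138), both on the log2 scale. The probes of Cyp4a12a and Cyp4a12b and those of the Mup genes can bind near-identical copies, so which copy changed is uncertain. Hsd3b5, a male-specific steroid enzyme, differed by -1.63 at 1 week (SE 1.18, adjusted p 0.349), -4.22 at 2 weeks (adjusted p 0.0334) and -9.17 at 6 weeks (adjusted p 0.0013), where 1 of the 2 CDAHFD arrays was above background. The difference at 1 week passed when its arrays were fitted alone (SE 0.162, adjusted p 0.000657) and without either CDAHFD array of 6 weeks (adjusted p 0.000466 and 0.00047). Its call at 2 weeks was lost without either array of either diet at that week. That call was also lost without either CDAHFD array of 1 week or either control array of 6 weeks.

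Of 10 measured female-biased genes, 2 rose and 2 fell at 1 week, 4 rose and 1 fell at 2 weeks. At 6 weeks 5 rose and 1 fell. Among all genes, 25.9%, 22.9% and 24.5% rose and 15%, 14.9% and 16.2% fell at 1, 2 and 6 weeks. Cyp2b9, a female-biased monooxygenase below background on all control arrays, was at least 1.76-fold higher at 2 weeks and at least 7.66-fold higher at 6 weeks (adjusted p 0.00538 and 4.54e-05). Cyp2b13 was at least 2.05-fold higher at 6 weeks (adjusted p 0.000368) and was below background in both diets before. Tox, which encodes a nuclear protein, rose by 0.87 ± 0.15 in the average (SE, adjusted p 0.000299). Cyp3a16 went the other way and fell by 2.18 on the log2 scale (SE 0.111, adjusted p 1.23e-07). After normexp 0 of the list rose at 1 and 2 weeks and 3 at 6 weeks, and the difference was 0.03 for Cyp2b9 at 2 weeks (adjusted p 0.813) and 0.30 for Cyp2b13 at 6 weeks (adjusted p 0.643). The list therefore moved in both directions, unlike the male-biased one, and the difference between the lists was not tested.

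Insulin and fasting act on Igfbp1 and Igf1, so 14 genes that insulin suppresses or fasting induces were read alongside. Of these, 2 rose and 1 fell at 1 week, 2 rose and 2 fell at 2 weeks, and 4 rose and none fell at 6 weeks. Their medians were 0.07, 0.03 and 0.13. Among all genes, 25.9%, 22.9% and 24.5% rose and 15%, 14.9% and 16.2% fell at these weeks. G6pc, the final enzyme of glucose release, fell by 1.38 in the average (SE 0.285, adjusted p 0.00514), but differed by -0.68 within the slide of 6 weeks (adjusted p 0.268). Irs2 differed by -0.57 (SE 0.301, adjusted p 0.192), and Pck1, the entry enzyme of gluconeogenesis, by 0.15 (SE 0.0743, adjusted p 0.0228), a call that 10 of 26 other settings ended. Gadd45b rose by 2.81 ± 0.25, Ppargc1a by 1.09 ± 0.19 and Cpt1a, which carries fatty acids into mitochondria, by 0.74 ± 0.12 (SE, adjusted p 9.04e-06, 0.000573 and 0.000178).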

How the data were processed

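Liver RNA of 12 samples was hybridised to 1-colour arrays, 2 per group. The authors deposited linear spot intensities from Agilent Feature Extraction, which the file headers describe as background-subtracted and detrended, with no normalization between arrays. The version of that software is 11.5.1.1 in the headers and 10.7 in the submitters' processing notes and so is unsettled. Each array held 62976 spots, 59305 of them gene spots of 55681 probes, and 0 were saturated. Outlier flags left 54 values missing, and spots of a probe were averaged. Accessions matched to the RefSeq table of GRCm38.p6 named 28664 probes (21613 symbols) and left 27017 unnamed. Since the headers name an older build for the array design, the table served for names, and the promoter windows come from RefSeq with that build.

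Log2 intensities were reduced by each array's 75th percentile over the 20137 probes detected on every array. The 13900 genes tested each had a probe well above background on both arrays of some group, and the brightest probe stood for the gene. Groups were compared with limma 3.58.1 in R 4.3.3 (lmFit, eBayes with trend and robust, Benjamini-Hochberg over all genes, threshold 0.05) on 6 group means, 2-sided; intervals are 95% and unadjusted for multiple tests. Adjusted p beside a single probe come from the same fit over all probes. The p tests the fitted difference, before the median of all genes is subtracted. A gene below background in a whole group is given a bound, "at least N-fold", in which every array of that group takes either the lowest signal still well above background or the signal of the gene, whichever is higher. The fit was tested on simulated data. The normexp alternative (offset 50) used median signals and backgrounds, because no mean signal column was in these files.

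The members and gene lists were chosen with earlier results of these data known. Named genes are all members, the first 3 and the 4 smallest adjusted p in the average for each list, given in part, and the 2 nearest patterns for each member. Alternatives were another centring, quantile normalization, normexp, the percentile over all probes, other filters, the mean of probes, eBayes without trend, array weights, a replicate block, single weeks or slides, later controls, a 2-fold minimum and leaving out each array.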

Additional observations from a re-analysis of the deposited data

Results flagged for a closer look

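The diet difference of Ghr changed between weeks (adjusted p 0.0442, limma F test over the interaction), from -0.49 at 1 week to -1.21 at 2 weeks and -1.17 at 6 weeks. The cause of this change was not tested. It was lost under median centring, the percentile over all probes, no filter, eBayes without trend and the replicate block (adjusted p 0.0533 to 0.08), and without any of 8 arrays. Groups of 2 arrays are too small for a test of outlying arrays.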

How the results depend on the processing

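With 2 arrays per group, a difference of the size of the spread of Cish or Bcl6 cannot be resolved. The number of the 10 members called changed as follows, and 0 of the called members reversed. Under eBayes without trend and robust it was 2 at 1 week, 0 for 6 weeks minus 1 week, 0 for the change between weeks and 1 for control weeks. Asking for at least a 2-fold difference as well left 1 at 1 week, 2 at 6 weeks, 2 in the average and 0 for 6 weeks minus 1 week. Control weeks gave 1 under median centring, the percentile over all probes, normexp or no filter, and 0 with the mean of probes. The change between weeks gave 0 under median centring, the percentile over all probes or no filter, and later controls gave 0 for 6 weeks minus 1 week. Leaving out one array gave 2 to 4 at 1 week, 4 to 4 at 2 weeks, 2 to 4 at 6 weeks, 4 to 5 in the average, 0 to 1 for 6 weeks minus 1 week, 0 to 1 for the change between weeks and 0 to 3 for control weeks. Replicates of the same number in both diets deviated with correlations of -0.05, 0.18 and 0.11 at 1, 2 and 6 weeks, so the numbers were not taken as pairs. With the replicate number as a block, 4 members were called at 1, 2 and 6 weeks, 5 in the average, 1 for 6 weeks minus 1 week, 0 for the change between weeks and 1 for control weeks. After normexp, the sign turned for Insrr and Cyp2b13, genes that were below background in most groups. Insrr then gave -0.41 at 1 week, -0.24 at 2 weeks and -0.21 in the average, and Cyp2b13 -0.16 in the average. The sign also turned for Igf2bp2 at 1 week (-0.16), where it was above background on all arrays of both diets. Over all genes, 5689, 5258, 5658 and 8522 were called at 1, 2 and 6 weeks and in the average; a 2-fold minimum left 2456, 2456, 2766 and 2518. Normexp gave 3423 at 2 weeks, 3767 at 6 weeks and 736 of 1596 for control weeks. Within slide 2 the average gave 4527, eBayes without trend left 163 of 334 for the change between weeks, and later controls left 406 of 748 for 6 weeks minus 1 week. Without CDAHFD replicate 1 of 1 week 3079 were called at 1 week, and without CDAHFD replicate 2 of 2 weeks 3393 at 2 weeks. The share of higher calls at 1, 2 and 6 weeks was 63.3%, 60.5% and 60.2%, against 45.5%, 48.9% and 48.2% under median centring, 36.1%, 39.3% and 38.1% with the percentile over all probes and 33.2%, 48.1% and 53.3% after normexp. The cause of these changes was not tested.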
